A study of Mus musculus with 6 samples.

Results

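The miRNAs described here are 6 mature sequences of the mouse miR-99, miR-100 and miR-125 families. They are mmu-miR-99a-5p, mmu-miR-99b-5p, mmu-miR-100-5p, mmu-miR-125a-5p, mmu-miR-125a-3p and mmu-miR-125b-5p, written without the species prefix from here on and taken by name from tables of small RNA read counts that list 622 mature miRNA names. All 6 were found and all 6 passed the filter on low counts, which left 440 of the 622 names for testing. Brains of inbred C57BL/6J mice were the source of all libraries. The 3 GCI libraries, numbered 1, 2 and 3, came from brains after cerebral ischemia-reperfusion, in which both carotid arteries were ligated for 20 minutes. The 3 Sham libraries, numbered 3, 6 and 7, came from sham-operated animals whose treatment is labelled as none. The sources used here give neither age nor sex, nor the brain region or the time of reperfusion. Nothing in the labels says that each library is a separate animal, so p-values measure the spread between these libraries only.

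A miRNA guides an Argonaute protein to messenger RNAs, mainly through its seed, the bases 2 to 8 of the mature strand. miR-125 is the vertebrate counterpart of lin-4, which together with let-7 times larval development in the worm Caenorhabditis elegans, and miR-99 and miR-100 are close relatives of miR-10. In mammals these families lie side by side with let-7 in polycistrons, so that a miR-99 or miR-100 hairpin, a let-7 hairpin and a miR-125 hairpin can come from a single primary transcript. The amount of each mature strand then also depends on how its own hairpin is processed and how long the strand lasts. miR-99a and miR-100 are known to repress the kinase mTOR. In rodent neurons, miR-125b is known to shape dendritic spines, and miR-125a-5p to repress the synaptic scaffold PSD-95.

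The mature sequences are shown with the seed in capitals, because the seed sets the families and because a few bases separate the strands whose counts are compared. They are from RefSeq on GRCm38.p6, written 5′ to 3′, and all 6 names matched.
miR-99a-5p: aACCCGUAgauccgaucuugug
miR-100-5p: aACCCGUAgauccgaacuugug
miR-99b-5p: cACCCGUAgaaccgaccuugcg
miR-125b-5p: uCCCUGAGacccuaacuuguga
miR-125a-5p: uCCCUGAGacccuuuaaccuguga
miR-125a-3p: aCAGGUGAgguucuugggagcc
let-7e-5p: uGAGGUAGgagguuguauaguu
let-7a-5p: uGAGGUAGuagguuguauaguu
let-7c-5p: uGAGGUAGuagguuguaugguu

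miR-99a-5p, miR-99b-5p and miR-100-5p share the seed ACCCGUA, which no other of the 1679 mature names in that table has. Counted from 1 at the 5′ end, miR-99a-5p and miR-100-5p differ at a single position, U16A with the base of miR-99a-5p first. miR-99b-5p differs from miR-99a-5p at 4 of 22 positions, A1C, U11A, U16C and U21C. miR-125a-5p (24 nt) and miR-125b-5p (22 nt) are identical over their first 13 bases, and their seed CCCUGAG is found in 5 names of the table, miR-351-5p among them. miR-125a-3p, from the opposite arm of the miR-125a hairpin, has a seed that no other name shares. The hairpin of miR-125a shows both arms, in capitals, that are compared further on.
Mir125a: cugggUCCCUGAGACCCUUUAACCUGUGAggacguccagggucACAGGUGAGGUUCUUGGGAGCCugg

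The hairpins form 3 clusters, all on the plus strand of GRCm38 in GENCODE vM21. On chromosome 17, Mir99b (chr17:17830188-17830257), Mirlet7e (chr17:17830352-17830444) and Mir125a (chr17:17830812-17830879) lie within 692 bp. They overlap the protein-coding gene Spaca6, the first 2 in an intron and Mir125a with an annotated exon. On chromosome 16, Mir99a (chr16:77598936-77599000), Mirlet7c-1 (chr16:77599657-77599750) and Mir125b-2 (chr16:77646273-77646343) lie within 47408 bp in introns of the noncoding host gene Mir99ahg. On chromosome 9, Mir100 (chr9:41531425-41531504), Mirlet7a-2 (chr9:41536716-41536811) and Mir125b-1 (chr9:41581926-41582002) lie within 50578 bp in introns of the noncoding genes 3110039I08Rik and Gm49317. miR-125b-5p is made from both the chromosome 16 and the chromosome 9 cluster with the same mature sequence, so its counts cannot be assigned to either.

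Each library held 1559288 to 2023475 counts in GCI and 1423905 to 1750612 in Sham after repeated names were reduced to 1 row. Levels are given as CPM, counts scaled to the TMM-adjusted library size. All 9 neuron markers listed were detected in every library, summing to 98161 to 108989 CPM in GCI and 102402 to 118915 CPM in Sham. The 8 epithelial markers listed, of the miR-183 and miR-200 groups, summed to 50923, 22069 and 27224 CPM in GCI libraries 1, 2 and 3, against 1982, 5107 and 7191 CPM in Sham libraries 3, 6 and 7. GCI library 1 was also highest in the 3 oligodendrocyte markers (2295 CPM, against 878 and 1477 CPM in the other GCI libraries and 861 to 898 CPM in Sham). None of the markers of either list was at 0 in any library, and the part of these tissues in the results was not tested. In bulk tissue, fewer cells of a type and less RNA per cell cannot be told apart.

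The 3 members of the miR-99 and miR-100 seed were abundant and the miR-125 members were not. By group mean, the order was the same in GCI and in Sham, with miR-99a-5p first, then miR-100-5p, miR-99b-5p, miR-125b-5p, miR-125a-5p and miR-125a-3p. In GCI, miR-99a-5p (5316 ± 1482 CPM) and miR-100-5p (4525 ± 189.9 CPM) overlapped, and in Sham they did not, at 6754 ± 185 and 3690.0 ± 590.1 CPM (SD, n = 3 each). No other neighbours in that order overlapped in either group. Among the 622 names, miR-99a-5p ranked 36 in GCI and 27 in Sham by mean level, miR-125b-5p 127 and 122, and miR-125a-3p 423 and 405. Counts of the ACCCGUA members together equalled 1.11% to 1.42% of the TMM-adjusted library size, and those of miR-125a-5p and miR-125b-5p together 0.0414% to 0.0598%. Adapter ligation favours some end sequences, so this order describes counts in these libraries and not molar amounts in the tissue.

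Between GCI and Sham, edgeR's quasi-likelihood test put none of the 6 past an adjusted p of 0.05 (Benjamini-Hochberg over 440 miRNAs). It called 10 of the 440 (2.27%). At an unadjusted p under 0.05 the count was again 0 of the 6, against 74 of all 440 (16.8%). DESeq2 called 0 of the 6 (26 of all, 5.91%) and limma-voom 0 of the 6 (10 of all, 2.27%). The log2 fold changes of GCI over Sham ran from −0.53 to 0.29, with 2 above and 4 below 0 and a median of −0.23, beside a median of −0.054 over all tested miRNAs.

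miR-99a-5p, the chromosome 16 member, stood at 4436, 7027 and 4486 CPM in GCI libraries 1, 2 and 3, against 6562, 6768 and 6931 CPM in Sham libraries 3, 6 and 7. GCI libraries 1 and 3 lay below every Sham library and GCI library 2 above all of them. The log2 fold change was −0.35 ± 0.23 (SE), and the adjusted p was 0.431 with edgeR. The coefficient of variation was 27.9% in GCI and 2.73% in Sham.

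miR-99b-5p, from the compact chromosome 17 cluster, measured 2180.2, 2488 and 2278 CPM in GCI, against 2449.8, 2598 and 2563 CPM in Sham. GCI library 2 lay within the Sham range and the other 2 below it. Its log2 fold change was −0.13 ± 0.17 (adjusted p = 0.694, edgeR).

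miR-100-5p, from chromosome 9, measured 4634, 4636 and 4306 CPM in GCI, against 3257, 3451 and 4362 CPM in Sham. It was the member with the highest log2 fold change, 0.29 ± 0.19, without passing the test (adjusted p = 0.423, edgeR). Sham library 7 lay inside the GCI range, which by itself made the groups overlap.

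miR-125a-5p, also from chromosome 17, measured 79.0, 149 and 111 CPM in GCI, against 177, 159 and 153 CPM in Sham. All GCI libraries lay below all Sham libraries, with 149 CPM in GCI library 2 close to 153 CPM in Sham library 7. It was the only 1 of the 6 whose groups did not overlap in either direction, beside 96 of the 440 tested miRNAs (21.8%). In 51 of the 440 (11.6%) every GCI library likewise lay below every Sham library. The log2 fold change was −0.53 ± 0.25 (adjusted p = 0.298, edgeR), and the GCI mean of 113 ± 35.0 CPM compared with 163 ± 12.2 CPM in Sham (SD, n = 3 each). The two-sided exact permutation p was 0.1, below which 3 against 3 cannot go.

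miR-125b-5p measured 336, 449 and 303 CPM in GCI, against 315, 314 and 411 CPM in Sham. The groups covered nearly the same range, and the log2 fold change was 0.065 ± 0.23 (adjusted p = 0.901, edgeR). Its 2 rows in the tables held 477 and 502 counts in GCI library 1 and 512 and 524 in Sham library 3, and the row with the higher total (3547 against 3445 counts) was used.

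miR-125a-3p, a minor strand known to act on the kinase Fyn in oligodendrocyte precursors, measured 7.36, 3.74 and 10.1 CPM in GCI, against 10.2, 9.58 and 7.48 CPM in Sham. These values rest on 11, 6 and 21 counts in GCI and 17, 14 and 13 counts in Sham. The exact 95% Poisson interval for the lowest, GCI library 2, was 1.37 to 8.14 CPM and for the highest, Sham library 3, 5.95 to 16.4 CPM. Both intervals cover counting error only. GCI library 3 was about as high as the highest Sham library, the groups overlapped, and the strand did not pass the test (log2 fold change −0.32 ± 0.40, adjusted p = 0.682, edgeR).

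**Figure D1:**
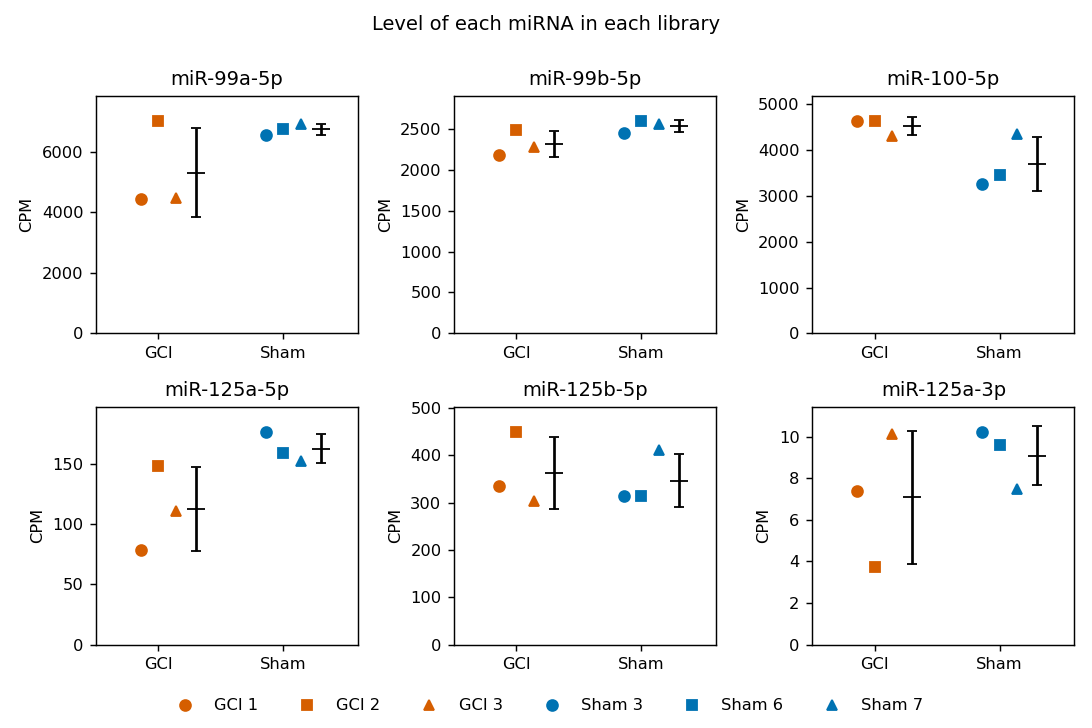
Level of each of the 6 miRNAs in CPM (linear axis from 0) in the 3 GCI libraries (orange, left) and the 3 Sham libraries (blue, right), with black bars for the mean ± SD of each group. GCI libraries 1 and 3 sit near 4436 and 4486 CPM for miR-99a-5p while GCI library 2, at 7027 CPM, sits with Sham, and for miR-125a-5p all GCI points lie below all Sham points.

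The calls on miR-99a-5p and miR-125a-5p turned on GCI library 2. Without it, edgeR called 2 of the 6, both lower in GCI, where 42 of 456 tested miRNAs (9.21%) were called lower and 100 (21.9%) in either direction. The log2 fold change of miR-99a-5p was then −0.60 ± 0.16 (adjusted p = 0.0290, edgeR) and that of miR-125a-5p −0.77 ± 0.21 (adjusted p = 0.0324, edgeR). Without GCI library 1 in its place, the log2 fold changes were −0.22 and −0.32. Without GCI library 3 that of miR-99a-5p was −0.18, and with any library other than GCI library 2 left out neither passed. miR-125b-5p moved to a log2 fold change of −0.12 without GCI library 2, below 0 where it was above 0 with all libraries. Of the 6, miR-100-5p was the least affected by that library, at 0.27 without it against 0.29 with it.

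The make-up of the ACCCGUA family is given beside its total. The sum of miR-99a-5p, miR-99b-5p and miR-100-5p was 11251, 14151 and 11069.8 CPM in GCI, against 12269, 12818 and 13856 CPM in Sham, with GCI library 2 the highest of all. Within that sum miR-100-5p held 41.2%, 32.8% and 38.9% in GCI, against 26.5%, 26.9% and 31.5% in Sham. miR-99a-5p held 39.4%, 49.7% and 40.5% in GCI, against 53.5%, 52.8% and 50.0% in Sham. miR-99b-5p held 17.6% to 20.6% in GCI and 18.5% to 20.3% in Sham, a nearly constant part.

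The count ratio of miR-100-5p to miR-99a-5p, in which library scaling cancels, was 1.04, 0.660 and 0.960 in GCI, against 0.496, 0.510 and 0.629 in Sham. Every GCI library lay above every Sham library, with GCI library 2 nearest to Sham library 7. The difference in log2 ratio was 0.68 ± 0.23 (SE, n = 3 each), a ratio 1.61-fold higher in GCI on average. The two-sided exact permutation p was 0.1, the lowest this design allows, and 0.3 adjusted over the 9 ratios compared. All 9 ratios were chosen with earlier results of these data known, so their p-values are descriptive and not those of tests set in advance. Because these strands differ at 1 base, a read with an error or a mapping that allows a mismatch can move between them. The sources used here do not say how the deposited counts treated such reads. The sum of just these 2 was 9070.4, 11663 and 8792 CPM in GCI, against 9819, 10219 and 11293 CPM in Sham.

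In the CCCUGAG family, the count ratio of miR-125a-5p to miR-125b-5p was 0.236, 0.332 and 0.367 in GCI, against 0.562, 0.509 and 0.372 in Sham, with every GCI library below every Sham library, GCI library 3 by little. The difference in log2 ratio was −0.63 ± 0.26 (SE, n = 3 each, two-sided exact permutation p = 0.1, adjusted over the 9 ratios 0.3). The ratio of miR-99b-5p to miR-99a-5p was 0.492, 0.354 and 0.508 in GCI, against 0.373, 0.384 and 0.370 in Sham. GCI libraries 1 and 3 stood above the narrow Sham range and GCI library 2 below it (difference in log2 ratio 0.25 ± 0.17, two-sided exact permutation p = 0.4, adjusted 0.6).

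**Figure D2:**
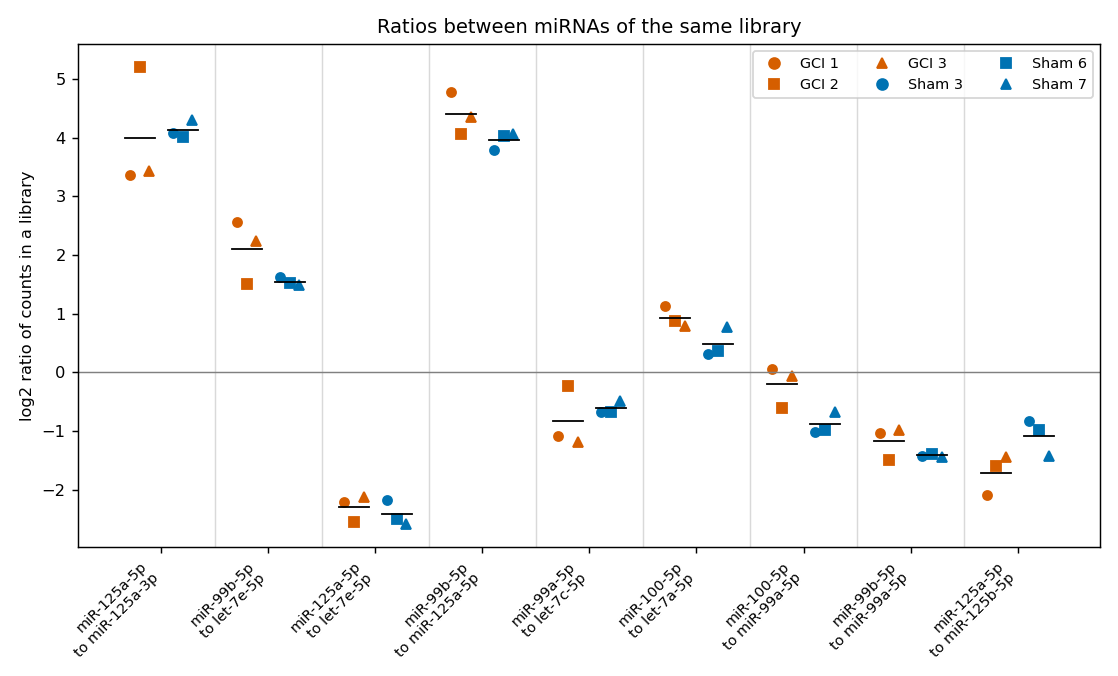
The log2 ratio of counts of 2 miRNAs in the same library, for 9 pairs of arms, cluster partners and family members, in GCI (orange, left of each pair) and Sham (blue, right), with a short black line for the mean of each group. The groups do not overlap for miR-100-5p to let-7a-5p, miR-100-5p to miR-99a-5p and miR-125a-5p to miR-125b-5p (exact permutation p = 0.1 each, 0.3 adjusted). The pairs with miR-100-5p share its counts. Among single miRNAs, 96 of 440 (21.8%) did not overlap, and no such share was taken over other ratios. The GCI points have a larger SD than the Sham points for all ratios except miR-100-5p to let-7a-5p.

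Strands of the chromosome 17 cluster differed in how far they departed from Sham. let-7e-5p, which lies between miR-99b and miR-125a and shares its seed with the other let-7 miRNAs, measured 367, 873 and 485 CPM in GCI, against 792, 900.1 and 914 CPM in Sham. GCI libraries 1 and 3 lay far below Sham and GCI library 2 within it (log2 fold change −0.60 ± 0.30, adjusted p = 0.318, edgeR). In log2 units from the Sham mean, GCI library 1 stood at −0.22 for miR-99b-5p, −1.24 for let-7e-5p and −1.03 for miR-125a-5p. In GCI library 3 the same strands stood at −0.15, −0.84 and −0.55, so that let-7e-5p and miR-125a-5p departed in the same libraries and miR-99b-5p by less. This was not particular to the cluster. Outside it, GCI libraries 1 and 3 stood at −0.61 and −0.59 for miR-99a-5p and −0.94 and −0.26 for miR-98-5p. Other strands outside it were high there, such as let-7i-5p (0.84 and 0.47).

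The ratio of miR-125a-5p to let-7e-5p was 0.216, 0.171 and 0.229 in GCI, against 0.223, 0.177 and 0.168 in Sham (difference in log2 ratio 0.12 ± 0.18, two-sided exact permutation p = 0.7, adjusted 0.788), and the groups overlapped. That of miR-99b-5p to let-7e-5p was 5.94, 2.85 and 4.70 in GCI, against 3.09, 2.89 and 2.80 in Sham, with GCI libraries 1 and 3 high and GCI library 2 within Sham. The difference was 0.56 ± 0.32 (two-sided exact permutation p = 0.3, adjusted 0.54), and that of miR-99b-5p to miR-125a-5p was 0.44 ± 0.23 (two-sided exact permutation p = 0.2, adjusted 0.45). Without GCI library 2 the differences were 0.85 and 0.61, and without GCI library 1 they were 0.32 and 0.25.

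The opposite strands miR-99b-3p and let-7e-3p were not low in those libraries. miR-99b-3p measured 86.4, 87.9 and 92.2 CPM in GCI, against 81.1, 86.9 and 94.95 CPM in Sham, a log2 fold change of 0.019 ± 0.19 (adjusted p = 0.963, edgeR). let-7e-3p measured 102, 38.0 and 61.8 CPM in GCI, against 54.7, 57.5 and 44.9 CPM in Sham, highest in the GCI library in which let-7e-5p was lowest. The count of let-7e-5p for each count of let-7e-3p was 3.58, 23.0 and 7.84 in GCI, against 14.5, 15.7 and 20.4 in Sham. This ratio was chosen after its values were seen and has no test. The ratio of miR-125a-5p to miR-125a-3p was 10.3, 36.8 and 10.7 in GCI, against 16.8, 16.1 and 19.7 in Sham. Its difference in log2 units, −0.13 ± 0.61, was small beside the spread in GCI (two-sided exact permutation p = 1.0, adjusted 1.0), and the value of GCI library 2 rests on 6 counts of the minor strand.

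In the chromosome 16 cluster, miR-99a-5p and its opposite strand were low in GCI libraries 1 and 3, and let-7c-5p was lowest in GCI library 2. miR-99a-3p measured 4.69, 26.2 and 15.9 CPM in GCI, against 24.6, 32.2 and 26.5 CPM in Sham, from 7, 42 and 33 counts in GCI and 41, 47 and 46 counts in Sham. Low values were again those of GCI libraries 1 and 3, and GCI library 2 was within Sham (log2 fold change −0.81 ± 0.45, adjusted p = 0.354, edgeR). The log2 fold change was −0.40 without GCI library 1, the one with 7 counts, and −1.34 without GCI library 2, and passed in neither case. let-7c-5p, a let-7 strand that a second hairpin outside the cluster also makes, measured 9348, 8227 and 10178 CPM in GCI, against 10445, 10761 and 9709.7 CPM in Sham. Both GCI libraries 1 and 2 lay below Sham, and GCI library 2 was the one in which miR-99a-5p was highest (log2 fold change −0.16 ± 0.19, adjusted p = 0.681, edgeR). The ratio of miR-99a-5p to let-7c-5p was 0.475, 0.854 and 0.441 in GCI, against 0.628, 0.629 and 0.714 in Sham, a difference of −0.22 ± 0.31 in log2 units (two-sided exact permutation p = 0.5, adjusted 0.643). It was −0.52 without GCI library 2 and −0.043 without GCI library 3. miR-125b-2-3p, from the far end of the cluster, measured 85.0, 52.4 and 59.8 CPM in GCI, against 54.7, 56.8 and 62.1 CPM in Sham.

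In the chromosome 9 cluster, miR-100-5p and let-7a-5p had log2 fold changes of opposite sign. let-7a-5p measured 2117, 2519 and 2481 CPM in GCI, against 2626, 2692 and 2547 CPM in Sham, without overlap but with GCI library 2 close to Sham library 7 (log2 fold change −0.14 ± 0.18, adjusted p = 0.682, edgeR). The ratio of miR-100-5p to let-7a-5p was 2.19, 1.84 and 1.74 in GCI, against 1.24, 1.28 and 1.71 in Sham, without overlap. GCI library 3 (1.74) lay very close to Sham library 7 (1.71). The difference in log2 ratio was 0.45 ± 0.18 (SE, n = 3 each, two-sided exact permutation p = 0.1, adjusted 0.3). let-7a-5p is also made outside this cluster, and it differs from let-7e-5p by U9G and from let-7c-5p by A19G, with the base of let-7a-5p first. As with miR-99a-5p and miR-100-5p, reads can move between strands that differ at 1 base. This limits the levels of these let-7 strands and every ratio that uses them. miR-125b-1-3p measured 12.0, 8.73 and 7.72 CPM in GCI, against 14.4, 18.5 and 6.33 CPM in Sham, from 11 to 27 counts. miR-100-3p, let-7a-2-3p and let-7c-1-3p had 21, 48 and 30 counts over all 6 libraries and were too low to test. Outside all 3 clusters, the minor strands let-7a-1-3p (from Mirlet7a-1 on chromosome 13) and let-7c-2-3p (from Mirlet7c-2 on chromosome 15) have an identical sequence and identical counts, 44 to 78 in GCI and 50 to 65 in Sham, and are a single measurement listed under both names (log2 fold change −0.12 ± 0.22, adjusted p = 0.787, edgeR).

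**Figure D3:**
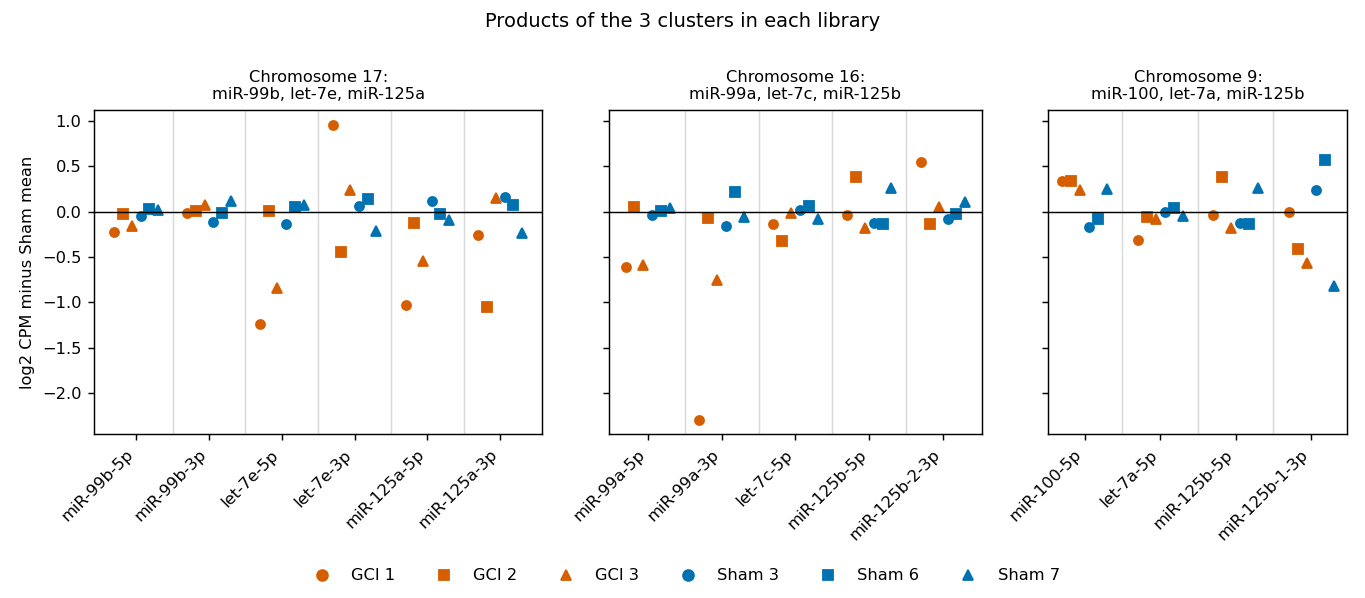
Products of each cluster in genome order, as log2 CPM minus the Sham mean of the same miRNA, in GCI libraries (orange) and Sham libraries (blue), with miR-125b-5p drawn in both clusters that encode it. GCI libraries 1 and 3 sit low for let-7e-5p (−1.24 and −0.84), miR-125a-5p, miR-99a-5p and miR-99a-3p, whereas miR-99b-3p lies between −0.11 and 0.12 in every library and let-7c-5p is lowest in GCI library 2 (−0.32).

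The wider let-7 and miR-98 family, which represses growth genes such as those of the Ras and Hmga2 proteins, had 0 of 10 tested guide strands past the threshold with edgeR (0 at an unadjusted p under 0.05), DESeq2 or limma-voom. Its log2 fold changes were split evenly, 5 above and 5 below 0, with a median of 0.018. In 3 strands every GCI library lay above every Sham library (45 of all 440, 10.2%) and in 3 every GCI library lay below (51 of 440, 11.6%). The higher 3 were let-7f-5p, let-7g-5p and let-7i-5p, at 22439 ± 3241, 10482 ± 1422 and 32266 ± 8269 CPM in GCI, against 16577 ± 741, 7581 ± 1186 and 22853 ± 1236 CPM in Sham (SD, n = 3 each). The lower 3 were let-7a-5p, let-7d-5p (1026 ± 157 CPM in GCI and 1337 ± 123 CPM in Sham) and miR-98-5p (1139 ± 308 CPM in GCI and 1515 ± 80.6 CPM in Sham). Without GCI library 2, edgeR called let-7e-5p lower (adjusted p = 0.0104) and let-7f-5p and let-7i-5p higher (adjusted p = 0.0356 and 0.0287), 3 of the 10, where 21.9% of all tested miRNAs were called. Without GCI library 1 none of these passed, and the log2 fold change was −0.35 for let-7e-5p, against −0.60 with all libraries, and 0.31 for let-7i-5p, against 0.50 with all libraries.

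The relatives outside the clusters had log2 fold changes above 0. miR-10a-5p, a Hox-locus miRNA whose sequence resembles that of miR-99 and miR-100, measured 299, 134 and 192 CPM in GCI, against 131, 133 and 131 CPM in Sham. Every GCI library lay above every Sham library, GCI library 2 by little, as in 45 of all 440 tested (10.2%). The log2 fold change was 0.66 ± 0.29 (adjusted p = 0.291, edgeR). Without GCI library 2 miR-10a-5p passed (adjusted p = 0.0228, edgeR), where 58 of 456 tested miRNAs (12.7%) were called higher. Without GCI library 1 its log2 fold change was 0.32 (adjusted p = 0.552, edgeR). miR-10b-5p averaged 177 ± 46.5 CPM in GCI and 134 ± 31.4 CPM in Sham (SD, n = 3 each). miR-351-5p, which has the miR-125 seed and a different 3′ part, measured 33.5, 13.7 and 10.1 CPM in GCI, against 15.6, 13.0 and 11.5 CPM in Sham. Its positive log2 fold change of 0.48 ± 0.44 rests on GCI library 1, without which it was −0.17.

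**Figure D4:**
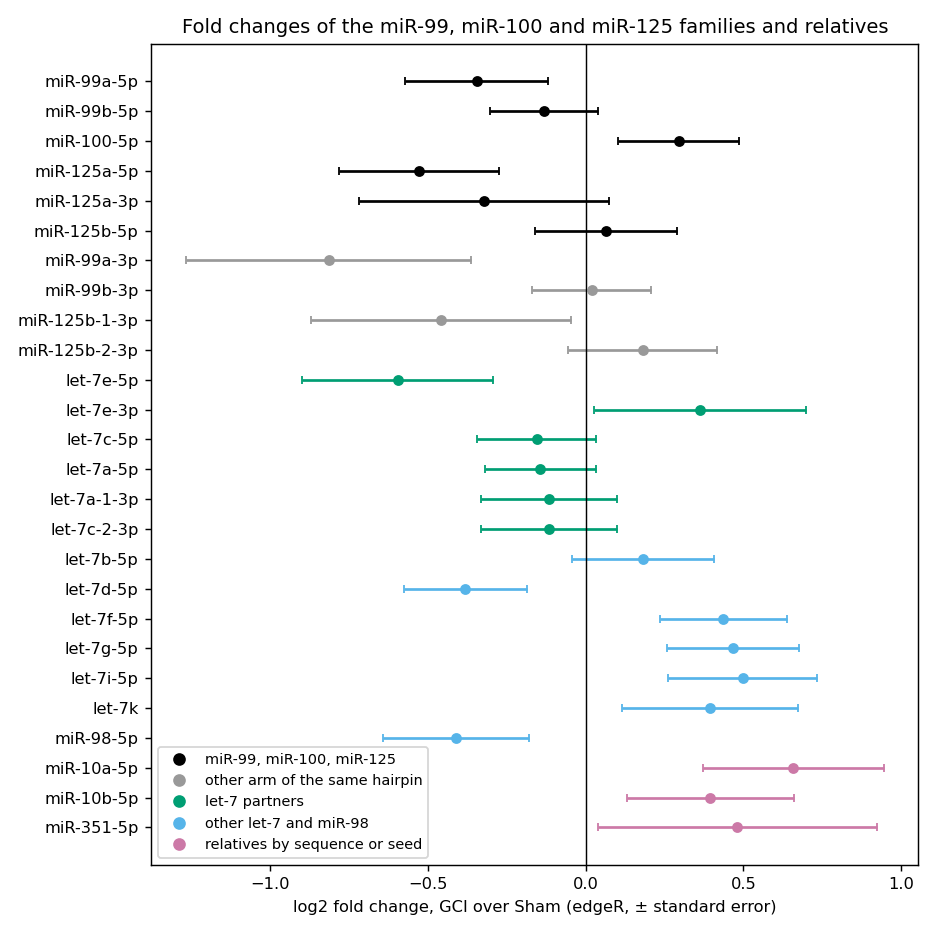
The log2 fold change of GCI over Sham with its standard error (edgeR, 3 libraries in each group) for the 6 miRNAs (black), the opposite arms of their hairpins (grey), the let-7 partners (green), the other let-7 and miR-98 guide strands (light blue) and the relatives by sequence or seed (pink). None passed the adjusted threshold, and the values run from −0.81 for miR-99a-3p (−0.40 without GCI library 1) to 0.66 for miR-10a-5p.

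For each of the 6, the miRNAs with the most similar profile were found by the mean absolute difference of log2 CPM over the 6 libraries, after each miRNA was centred on its own mean, among 387 or 388 others with at least 10 CPM on average in both groups. miR-99a-5p was nearest to miR-181c-5p (0.074), miR-129-5p (0.079) and miR-181d-5p (0.089), where the median over the 387 compared was 0.318. miR-125a-5p was nearest to miR-31-3p (0.067), miR-3068-5p (0.080) and miR-29a-3p (0.088). miR-99b-5p was nearest to miR-485-3p (0.046), miR-574-3p (0.048) and then let-7a-5p (0.051). miR-100-5p was nearest to miR-185-5p (0.10), and miR-125b-5p to the endothelial miR-126a-3p (0.098). miR-125a-3p was nearest to miR-664-3p (0.16), a looser match with so few counts. For comparison, miR-125a-5p lay 0.19 from let-7e-5p and 0.26 from miR-99b-5p of its own cluster. From outside that cluster, miR-99a-5p lay 0.15 and miR-98-5p 0.12 from miR-125a-5p. miR-99a-5p lay 0.36 from miR-100-5p. These distances describe 6 libraries that share the 2 conditions and have no test.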

How the data were processed

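Small RNA of 6 brain samples was sequenced, 3 GCI and 3 Sham. Per the labels' protocols, 1 µg of TRIzol-extracted RNA went into each NEBNext small RNA library, sized for inserts of 15 to 35 nt. Per the submitters' processing notes, cutadapt and Bowtie were used; the sources used here give no version, genome build or miRNA reference. Per mature miRNA entry, the authors deposited read counts, whole and not normalized, in 727 rows with 622 names. Of 50 repeated names, 22 had identical rows and 41 rows within 5%. Others differed more, such as the oligodendrocyte marker miR-219a-5p with 617 and 1134 counts in all. Each name was represented by its row of largest total, as a choice. Libraries of a group differed beyond counting noise, so none was counted as a copy of another. The chi-square per degree of freedom was 180 to 505 between GCI libraries and 35.8 to 56.4 between Sham libraries. It does not tell whether libraries came from separate animals.

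The test was edgeR 4.0.16 under R 4.3.3 (quasi-likelihood, TMM scaling, filterByExpr with minimum count 10 and minimum total 15, group as the only term, Benjamini-Hochberg over 440 miRNAs, threshold 0.05). Standard errors come from the F statistic. The test was checked on simulated counts with known changes. It called 44 of 65 2-fold changes (67.7%), all 65 4-fold and all 65 8-fold changes, and 3 of 237 unchanged miRNAs (1.27%). Only 237 of the 432 simulated miRNAs tested were unchanged, and a common dispersion was used for all miRNAs in both groups. In the data 10 of 440 were called, and GCI libraries differed more from each other than Sham libraries did. The simulated shares therefore do not give the power of the test in these data. Changes smaller than 2-fold were not simulated. Ratios within a library used a pseudocount of 0.5 counts and two-sided exact permutation tests, which cannot go below p = 0.1 for 3 against 3. The limit that a count of 0 allows, 3 counts, is 1.45 to 2.05 CPM by library and covers counting error alone, because PCR duplicates are not separate molecules. Sequences are from RefSeq (GRCm38.p6) and positions from GENCODE vM21 (GRCm38), matched by name.

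As alternatives, libraries were scaled by RLE factors, upper quartiles or total counts; others were scaling factors estimated without these families and let-7, scaling and testing without the 5 most abundant miRNAs, a minimum of 10 CPM in 3 libraries or no filter at all, limma-voom (limma 3.58.1), DESeq2 1.42.0, robust estimation, sums of or all repeated rows, a pseudocount of 5 counts, and each library left out in turn. The members, lists and ratios were chosen with earlier results of these data known. The named miRNAs are the 6, the other strands of their clusters, let-7a-1-3p and let-7c-2-3p from outside them (1 measurement under 2 names), the let-7 and miR-98 guide strands, miR-10a-5p, miR-10b-5p and miR-351-5p, and the 3 miRNAs with the nearest profile to each of the 6, of which the text gives a part. Of the marker lists, the neuron, epithelial and oligodendrocyte ones are in the report and the others under the observations.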

Additional observations from a re-analysis of the deposited data

How the results depend on the processing

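No paired analysis was possible because the groups share only 1 replicate number, 3. Of all tested miRNAs, edgeR called 10 with all libraries, 4 with RLE scaling, 4 with the 5 most abundant miRNAs left out, and 0 to 100 with single libraries left out. DESeq2, by its own test, called 26 (22 higher and 4 lower). Among the 6 miRNAs the count of calls was 0 in every setting, except that single libraries left out gave 0 to 2, with 2 without GCI library 2. Beside those 2, the strands let-7e-5p, let-7f-5p, let-7i-5p and miR-10a-5p passed without that library and nowhere else. Of 26 named miRNAs (let-7a-1-3p and let-7c-2-3p counted apart) over 18 settings, 5 changed sign. miR-99b-3p was at −0.0091 with total-count scaling. With single libraries left out, miR-125b-5p ran from −0.12 (without GCI library 2) to 0.24, and 3 others were below 0 without GCI library 1, miR-125b-2-3p (−0.029 to 0.31), let-7e-3p (−0.043 to 0.64) and miR-351-5p (−0.17 to 0.87). The cause was not tested. Over the settings other than left-out libraries, the log2 fold change ran from −0.38 to −0.28 for miR-99a-5p, −0.57 to −0.47 for miR-125a-5p and 0.26 to 0.36 for miR-100-5p. miR-125a-3p had too few counts for the filter of 10 CPM.

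With single libraries left out, the difference in log2 ratio ran from 0.55 to 0.89 for miR-100-5p to miR-99a-5p, 0.36 to 0.60 for miR-100-5p to let-7a-5p, and −0.80 to −0.44 for miR-125a-5p to miR-125b-5p. It kept its sign for all ratios except miR-125a-5p to miR-125a-3p, which ran from −0.73 to 0.18 and was 0.18 without GCI library 1 and 0.16 without GCI library 3. Summed rows or a pseudocount of 5 counts turned no ratio round. With 2 libraries left in a group no exact permutation p can reach 0.05, so these are values. The counts of miR-125a-3p, 6 to 21 a library, limit what can be said of that strand.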

Other observations

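Markers of other tissues also varied in single libraries. The 3 skeletal muscle markers summed to 20235, 10025 and 16535 CPM in GCI libraries 1, 2 and 3, against 14425, 16715 and 11342 CPM in Sham libraries 3, 6 and 7. The 5 leukocyte and microglia markers summed to 419 to 739.7 CPM in GCI and 411 to 484 CPM in Sham, and the 4 erythrocyte markers to 409 to 558 CPM in GCI and 394 to 458 CPM in Sham. The 2 endothelial markers summed to 3389 to 4391 CPM in GCI and 3427 to 3857 CPM in Sham, and the 2 smooth muscle markers to 23425 to 40840.1 CPM in GCI and 31328 to 46294 CPM in Sham. The 3 choroid plexus markers summed to 1673 to 1972 CPM in GCI and 1637 to 1891 CPM in Sham. The liver marker miR-122-5p stood at 21.2 to 63.6 CPM in GCI and 8.21 to 16.7 CPM in Sham. GCI library 1 was the highest library for the leukocyte, erythrocyte, endothelial, skeletal muscle and liver markers.

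The count of miR-99a-5p for each count of miR-99a-3p was 947, 268 and 282 in GCI libraries 1, 2 and 3, against 266, 210.4 and 262 in Sham libraries 3, 6 and 7, and that of miR-99b-5p for each miR-99b-3p was 25.2, 28.3 and 24.7 in GCI, against 30.2, 29.9 and 27.0 in Sham. The first value rests on 7 counts of miR-99a-3p. Both ratios were chosen after their values were seen and have no test.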
